A study of Mus musculus with 10 samples.

Results

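The acute-phase proteins are plasma proteins whose production by the liver changes quickly during infection, injury or inflammation. This set held 10 genes named by symbol, the serum amyloid A genes Saa1, Saa2, Saa3 and Saa4, the orosomucoid genes Orm1 and Orm2, and Lcn2, Hp, Hpx and Apcs. All 10 were found among the 24421 genes listed, and all 10 passed the filter on low counts that kept 11092 genes. They were chosen by family and function with the TM5614 against Chow values of Saa1 and Saa2 already in view, so their differences between the groups are given as a description, without a p-value.

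In the classical account, interleukin-6, interleukin-1 and tumour necrosis factor from immune cells act on hepatocytes, where STAT3, C/EBP and NF-kB factors raise transcription of the positive acute-phase genes. Serum amyloid A proteins are the most inducible of these in the mouse. They travel on high-density lipoprotein, while the other members bind drugs, iron-carrying siderophores, haemoglobin, haem or amyloid fibrils. The negative acute-phase proteins, such as albumin and transthyretin, are made less in the same state.

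Hepatic poly(A) RNA was sequenced from wild-type male C57BL/6 mice (C57BL/6J in the study's methods), 21 weeks old by the labels and fed ad libitum. The Chow group (n = 5, mice 41 to 45) ate standard chow, and the TM5614 group (n = 5, mice 46 to 50) received TM5614 in the chow, 20 mg/kg/day over 10 days. TM5614 is a small molecule that is taken by mouth. Each mouse gave 1 library, numbered as replicates 1 to 5 in mouse order, and a single dose and time were studied.

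Totals ranged from 6398335 counts in Chow mouse 44 to 10874955 in Chow mouse 42. The 8 hepatocyte markers examined, Alb and Cyp2e1 among them, were all past the filter. Their sum lay between 114589 and 141731 CPM (counts relative to library size, adjusted by TMM factors) in every library. Alb made up most of it, and single markers were less even. In Chow mouse 42 Cps1, Apob and Tat measured 1415, 3157 and 672 CPM, where the other Chow mice had at least 4695, 7360 and 1366 CPM. Apoa1 and Ttr were instead highest of Chow in mouse 42, and Alb, Cyp2e1 and Arg1 lowest. Mouse 42 stood apart, since the chi-square per degree of freedom of its counts against the other Chow libraries was 78.2 to 120, where the other Chow pairs gave 9.70 to 20.5. Mouse 47 of the TM5614 group held 22806 counts of 6 skeletal muscle markers, where no Chow library held more than 13, and TM5614 mouse 48 held 405. Chow mouse 44 was the highest of the Chow libraries in 5 of the 10 members, so each difference is given with it and without it. In whole liver, fewer cells of a type and less RNA per cell cannot be told apart.

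Most members were lower in the livers of TM5614 mice. In the quasi-likelihood test of edgeR, adjusted by Benjamini-Hochberg over the 11092 genes at 0.05, 6 of the 10 were called lower (Saa1, Saa2, Orm1, Orm2, Lcn2 and Apcs) and none higher, where 4.50% of all genes tested were called, 2.77% lower and 1.73% higher. Without mouse 44, 5 were called lower, Lcn2 no longer among them, where 3.14% of all genes were called and 2.00% were lower. The estimate was lower for 9 members and higher for Saa3. The median log2 fold change over the 10 was -0.94, and -1.01 without mouse 44, where the median over all genes tested was 0.01 in both fits. In 6 members (Saa1, Saa2, Saa4, Orm1, Orm2 and Apcs) every TM5614 library lay below every Chow library, with or without mouse 44, where the groups of 8.93% of all genes were apart, 4.87% in that direction (5.60% without mouse 44). For Saa4 this held in CPM only, as in the deposited FPKM and regularised log2 values mouse 50 lay just above Chow mouse 44. Since the members were picked with this contrast in view, nothing is read from these counts.

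**Figure D1:**
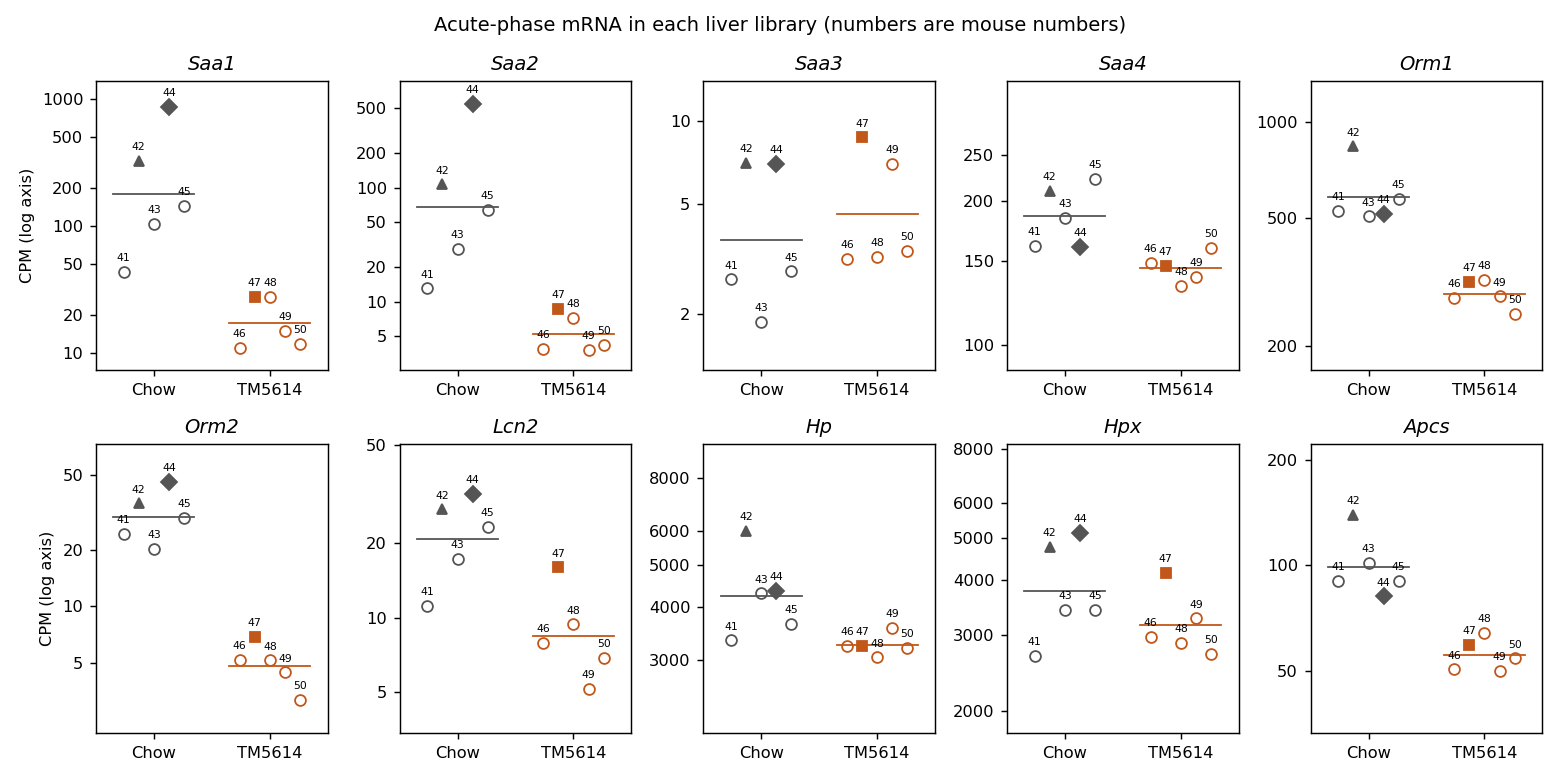
Each panel shows the CPM of 1 gene on a log axis in the 5 Chow (grey) and 5 TM5614 (orange) libraries, numbered by mouse, with the geometric mean of the group as a line. Filled diamonds are Chow mouse 44, triangles Chow mouse 42 and squares TM5614 mouse 47. Saa1 and Saa2 spread widely in Chow, up to 866 and 539 CPM in mouse 44, and the groups are apart in Saa1, Saa2, Saa4, Orm1, Orm2 and Apcs.

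The serum amyloid A genes lie together on chromosome 7 of GRCm38 (mm10), 4 genes within 42316 bases. Saa3 (chr7:46711998-46715700), Saa4 (chr7:46727998-46732603) and Saa1 (chr7:46740497-46742980) are on the minus strand and Saa2 (chr7:46751790-46754313) is on the plus strand, so that Saa1 and Saa2 point away from each other. All are protein-coding, and none overlaps another annotated gene. Saa1 and Saa2 encode the serum amyloid A proteins that the mouse liver secretes in the acute phase. Their coding sequences, 366 bases each, matched at 348 positions (95.1%), whereas Saa1 matched Saa3 at 74.3% and Saa4 at 64.4%. The reads were 75 bases long, and 25 of the 535 stretches of that length in Saa1 transcripts (4.67%) and 29 of 637 in Saa2 (4.55%) also occur exactly in the other gene.

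Saa1 measured 43.7, 327, 105, 866 and 144 CPM in Chow mice 41 to 45. In TM5614 mice 46 to 50 it measured 11.1, 27.8, 27.9, 15.1 and 11.8 CPM. Every treated liver was below the lowest Chow liver, and the Chow mice themselves were 19.8-fold apart, against 2.52-fold in TM5614. TM5614 against Chow gave a log2 fold change of -3.99 (SE 0.72, 95% interval -5.56 to -2.41), a level 15.8-fold lower in TM5614. Without mouse 44 it was -3.06 (SE 0.52, interval -4.21 to -1.92), or 8.36-fold lower.

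Saa2 put the Chow mice in the same order as Saa1. It measured 13.1, 107, 29.1, 539 and 63.9 CPM in Chow and 3.88, 8.69, 7.22, 3.77 and 4.21 CPM in TM5614. The highest Chow liver was 41.2-fold above the lowest, and the groups did not overlap. For Saa2 the log2 fold change was -4.75 (SE 0.92, interval -6.76 to -2.74), or 27.0-fold lower, and -3.28 (SE 0.54, interval -4.47 to -2.09), or 9.71-fold lower, without mouse 44. With mice 42 and 44 both left out, which was decided after seeing the values, the log2 fold changes were -2.40 for Saa1 and -2.70 for Saa2. Mouse 44 thus moved the size of both differences by more than 1.5 times and left their direction. With the counts of the pair summed, which sets aside how reads were split between them, the log2 fold change was -4.20 (SE 0.77). The size also depended on the measure. The plain difference in mean log2 CPM, in which a single high library weighs less than in a mean of counts, was -3.36 for Saa1 and -3.64 for Saa2. With limma-voom and sample quality weights, which also works on log2 values, it was -3.25 for Saa1 and -3.50 for Saa2.

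The pair also spread widely within each group, most of all in Chow. The SD of log2 CPM over the Chow mice was 2.02 for Saa2 and 1.64 for Saa1, higher than in 99.98% and 99.87% of the genes tested, for which the median SD was 0.343. Without mouse 44 the SDs were 1.32 and 1.20, still above those of 99.5% and 99.0% of genes. In TM5614 they were 0.54 and 0.64, above those of 93.8% and 96.2% of genes, where the median over genes was 0.191. Wide spread was not particular to the pair, as the SD of Saa3 was above that of 95.6% of genes in Chow and 96.7% in TM5614.

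The regions just upstream of Saa1, Saa2, Saa3 and Orm2 are shown because Saa1, Saa2 and Orm2 had the largest differences of the members and Saa3, a neighbour of the same family, did not share their direction. Each runs from 250 to 44 bases before the RefSeq gene start (GRCm38.p6), 5' to 3' on the strand of the gene, and capitals mark a match to the C/EBP-like letters TTGCNNAA on either strand. The positions are chr7:46743024-46743230 (minus) for Saa1, chr7:46751583-46751789 (plus) for Saa2, chr7:46715720-46715926 (minus) for Saa3 and chr4:63362199-63362405 (plus) for Orm2.
Saa1: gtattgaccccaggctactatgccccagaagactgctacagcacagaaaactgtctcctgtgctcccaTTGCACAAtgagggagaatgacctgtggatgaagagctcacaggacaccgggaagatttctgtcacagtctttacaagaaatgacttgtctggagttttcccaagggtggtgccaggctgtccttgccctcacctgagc
Saa2: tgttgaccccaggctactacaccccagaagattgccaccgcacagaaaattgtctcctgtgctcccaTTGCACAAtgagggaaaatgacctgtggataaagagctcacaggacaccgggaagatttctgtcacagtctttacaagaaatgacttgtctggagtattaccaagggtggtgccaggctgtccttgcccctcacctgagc
Saa3: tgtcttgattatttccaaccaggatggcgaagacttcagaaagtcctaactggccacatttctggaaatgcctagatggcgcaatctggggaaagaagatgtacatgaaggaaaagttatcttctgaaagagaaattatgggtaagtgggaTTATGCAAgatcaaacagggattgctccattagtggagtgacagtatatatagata
Orm2: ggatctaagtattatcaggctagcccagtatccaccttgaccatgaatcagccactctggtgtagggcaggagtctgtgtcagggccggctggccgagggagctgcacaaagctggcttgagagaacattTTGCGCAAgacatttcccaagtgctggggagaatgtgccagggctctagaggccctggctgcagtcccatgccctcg
Over windows of 300 bases (250 before the start and 50 after), Saa1 and Saa2 matched at 287 positions (95.3%, gaps counted as differences), while Saa1 matched Saa3 at 49.4% and Saa4 at 46.8%. Both Saa1 and Saa2 held the letters TTGCACAA, beginning at position -182 from the start in Saa1 and -183 in Saa2. Saa3 held TTATGCAA, the other strand of the pattern, beginning at -99, and Orm2 held TTGCGCAA, beginning at -120. RefSeq windows were matched for 8 members, all but Orm1 and Hp, and 7 of them (all but Apcs) held a C/EBP-like match, where 10.8% of 32851 such windows did. A STAT-like match (TTCNNNGAA) was found in 1 member, Apcs, where 8.30% of all windows held it, and an NF-kB-like match (GGGNNTTTC) in none of the 8, where 4.36% did. Both strands were searched, and the patterns were picked after results and windows had been seen, so the matches describe these letters and are not evidence of binding.

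Saa3 encodes an amyloid A protein that macrophages and fat cells also make outside the liver. Its level was low, 2.67, 7.04, 1.88, 6.97 and 2.85 CPM in Chow and 3.16, 8.69, 3.21, 6.97 and 3.39 CPM in TM5614, from 18 to 73 counts per library. The groups overlapped throughout, with mice 42 and 44 high in Chow and mice 47 and 49 high in TM5614. Its log2 fold change was 0.26 (SE 0.42, interval -0.66 to 1.18), and 0.47 (SE 0.44) without mouse 44. It was -0.02 without TM5614 mouse 47, so its sign rested on that library. The sum of 12 Kupffer cell and macrophage markers was 92.7 to 295 CPM in Chow and 99.98 to 206 CPM in TM5614. Of the 12, 0 were called by edgeR (4.50% of all genes tested were), DESeq2 or limma-voom and 0 had an unadjusted p under 0.05. Their estimates were lower in TM5614 for 11 of the 12, with a median log2 fold change of -0.38 (-0.47 without mouse 44). The sum of 6 adipocyte markers was 4.18 to 8.74 CPM in Chow and 4.11 to 14.8 CPM in TM5614, highest in mouse 47. Adrb3 was the largest of the 6 in every library but mouse 47, and held 8.24 of the 8.40 CPM in mouse 44. Adipoq was at 7.40, 2.58 and 1.26 CPM in mice 47, 45 and 48 and at most 0.21 CPM in the others. The part of either marker list in the members' values was not tested.

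Saa4 encodes the constitutive serum amyloid A of high-density lipoprotein, which is known to respond little in the acute phase. It measured 161, 210, 185, 160 and 222 CPM in Chow and 149, 146, 133, 139 and 160 CPM in TM5614. The lowest Chow CPM, in mouse 44, lay just above the highest TM5614 CPM, in mouse 50, so that the groups were barely apart. The difference on the log2 scale was -0.37 (SE 0.12, interval -0.63 to -0.11) and -0.43 (SE 0.12) without mouse 44, and Saa4 was not called in either fit. DESeq2 and limma-voom with sample quality weights called it lower. Of the 4 family members, then, Saa1 and Saa2 had differences of -3.99 and -4.75 on the log2 scale, Saa4 of -0.37 and Saa3 of 0.26.

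Saa2 made up 21.8% to 38.4% of the summed Saa1 and Saa2 counts in Chow and 20.0% to 26.3% in TM5614. The share was highest in mouse 44, at 38.4% (95% Wilson interval 37.4% to 39.4%, from 8870 counts), and next in mouse 45, at 30.7% (28.9% to 32.7%). Chow mice 41, 42 and 43 had 23.1%, 24.7% and 21.8%, within the range of the TM5614 livers, whose intervals were wider because they held 104 to 306 counts of the pair. These intervals cover counting error within a library only. The study's methods do not mention molecular identifiers, so duplicate reads may make them too narrow.

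The orosomucoid genes encode alpha-1-acid glycoproteins, which bind basic drugs and lipophilic molecules in plasma. Orm1 (chr4:63344560-63348163), Orm3 and Orm2 (chr4:63362449-63365878) follow each other on the plus strand of chromosome 4 within 21319 bases. Orm1 and Orm2 matched at 558 of 621 coding bases (89.9%), and 13.8% of the 75-base stretches in Orm1 transcripts and 14% in Orm2 also occur in another gene, so some reads cannot be assigned to 1 of the pair.

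Orm1 measured 527, 839, 507, 517 and 576 CPM in Chow and 282, 316, 322, 285 and 252 CPM in TM5614. The groups were well apart, with mouse 42 alone high among the Chow livers and mouse 44 in the middle of the rest. The log2 fold change was -1.03 (SE 0.15, interval -1.35 to -0.70), or 2.04-fold lower, and -1.08 (SE 0.16) without mouse 44. Orm2 measured 24.4, 35.4, 20.1, 45.9 and 29.7 CPM in Chow and 5.17, 6.88, 5.16, 4.46 and 3.18 CPM in TM5614. Its highest treated liver was below its lowest Chow liver by a wide margin, and its spread within Chow was small beside that of Saa1. In log2 terms Orm2 differed by -2.65 (SE 0.25, interval -3.20 to -2.10), or 6.27-fold lower, and -2.48 (SE 0.23, interval -2.99 to -1.97), or 5.58-fold lower, without mouse 44.

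The pair therefore differed in proportion as well as in level. Orm2 counts were 3.98% to 8.89% of Orm1 counts in Chow (mean 5.37% ± 2.02, SD, n = 5) and 1.26% to 2.18% in TM5614 (1.69% ± 0.34, SD, n = 5). No treated liver reached the lowest Chow value, and mouse 44 was the highest. Orm3, the third gene of the cluster, was low, at 3.48 ± 1.14 CPM in Chow and 2.94 ± 1.11 CPM in TM5614 (SD, n = 5 each), with a log2 fold change of -0.27 (edgeR adjusted p = 0.615).

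**Figure D2:**
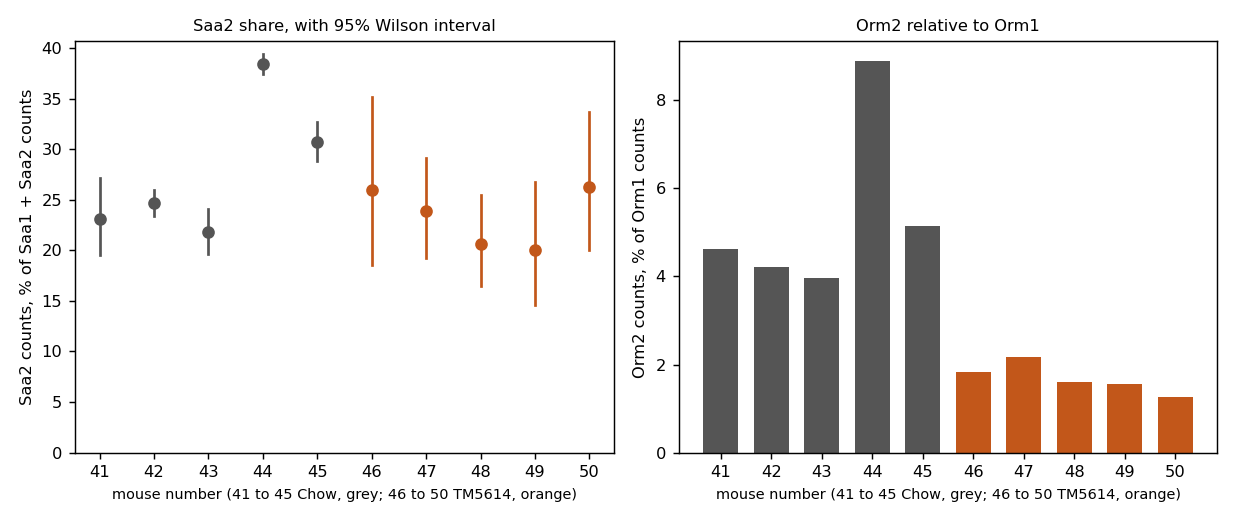
The left panel shows Saa2 counts as a percentage of Saa1 plus Saa2 counts in each mouse with 95% Wilson intervals, and the right panel Orm2 counts as a percentage of Orm1 counts. Chow livers are grey and TM5614 livers orange. Mouse 44 is highest in both, at 38.4% and 8.89%, and all TM5614 livers are below all Chow livers in the right panel only.

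Lcn2 (chr2:32384633-32388252, minus strand) encodes lipocalin-2, which sequesters bacterial siderophores and is also stored in neutrophil granules. It measured 11.2, 27.4, 17.2, 31.5 and 23.3 CPM in Chow and 7.90, 16.0, 9.40, 5.14 and 6.88 CPM in TM5614. Mouse 47 lay above Chow mouse 41, so the groups overlapped. Lcn2 had a log2 fold change of -1.29 (SE 0.32, interval -1.99 to -0.59) and -1.14 (SE 0.33, interval -1.88 to -0.41) without mouse 44, where it was no longer called. Its call was also lost without Chow mice 43 or 45, or TM5614 mice 46, 48, 49 or 50, each left out alone. Neutrophil markers were at the limit of detection in every library. Of the 12 on the list 11 were in the table, none passed the filter, Camp had no count in any library, and their sum was 0.94 to 3.18 CPM in Chow and 0.80 to 3.78 CPM in TM5614.

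Hp (chr8:109575128-109579172, minus strand) encodes haptoglobin, which binds free haemoglobin, and Hpx (chr7:105591613-105600137, minus strand) encodes hemopexin, which binds free haem. Both are abundant in the resting liver. Hp measured 3333, 5997, 4292, 4348 and 3642 CPM in Chow and 3241, 3240, 3043, 3573 and 3197 CPM in TM5614. Only mouse 49 of the treated livers reached the Chow range, and mouse 42 was the highest of all. For Hp the log2 fold change was -0.41 (SE 0.15, interval -0.73 to -0.09) and -0.42 (SE 0.17) without mouse 44, and Hp was not called. Hpx measured 2680, 4756, 3424, 5131 and 3411 CPM in Chow and 2966, 4157, 2870, 3269 and 2713 CPM in TM5614. The groups overlapped over the whole TM5614 range, with mouse 47 the highest treated liver. For Hpx it was -0.28 (SE 0.18, interval -0.68 to 0.12) and -0.17 (SE 0.18, interval -0.57 to 0.23) without mouse 44, and Hpx was not called. The unadjusted interval of Hp lay below 0 with and without mouse 44 (-0.78 to -0.05 without it), and reached almost no difference. That of Hpx left room for lower and for higher levels in TM5614.

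Apcs (chr1:172893961-172895041, minus strand) encodes serum amyloid P component, the mouse's main pentraxin of the acute phase, which binds amyloid fibrils. It measured 90.2, 139, 101, 81.4 and 90.3 CPM in Chow and 50.4, 59.2, 64.2, 49.8 and 54.2 CPM in TM5614. The groups did not overlap, and mouse 44 was the lowest of the Chow livers here, not the highest. The log2 fold change was -0.85 (SE 0.15, interval -1.18 to -0.53), or 1.81-fold lower, and -0.93 (SE 0.16), or 1.90-fold lower, without mouse 44.

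The members were also compared without each of the other libraries that stood apart. Leaving out Chow mouse 42, the highest Chow liver in Orm1, Hp and Apcs, gave log2 fold changes of -0.88 for Orm1, -0.27 for Hp and -0.72 for Apcs, with Orm1 and Apcs still called. Leaving out TM5614 mouse 47, the highest treated liver in Orm2, Lcn2 and Hpx, gave -2.80 for Orm2, -1.60 for Lcn2 and -0.40 for Hpx, with Orm2 and Lcn2 still called. The part of the muscle transcripts of mouse 47 in its member levels was not tested.

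**Figure D3:**
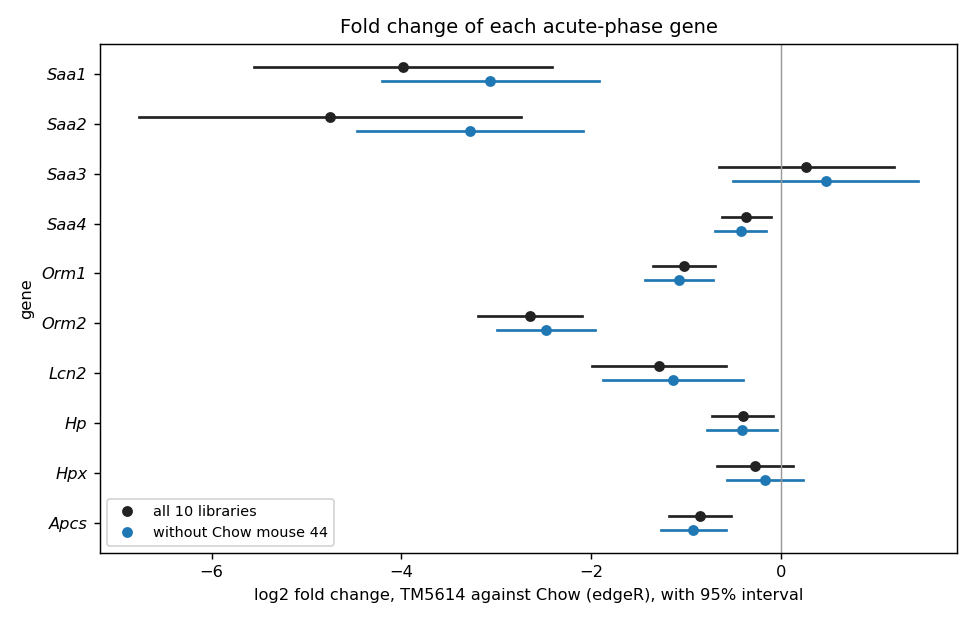
Points are edgeR log2 fold changes of TM5614 against Chow with 95% intervals, from all 10 libraries (black) and without Chow mouse 44 (blue). Saa1 and Saa2 move from -3.99 and -4.75 to -3.06 and -3.28, and the other 8 members move by little.

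Compared per length, with the FPKM values that the authors deposited, Hp and Hpx dominated in both groups. The Chow medians were 3162 FPKM for Hp, 2292 for Hpx, 681 for Orm1, 234 for Saa1, 103 for Saa2, 90.9 for Apcs, 90.0 for Saa4, 37.8 for Orm2, 26.9 for Lcn2 and 5.29 for Saa3. Hp and Hpx overlapped over the mice, Orm1 lay below both in every Chow liver, and Saa1 ranged from 71.3 to 1403 FPKM, across the levels of Orm1, Apcs and Saa4. In TM5614 the medians were 2354 for Hp, 1980 for Hpx, 368 for Orm1, 69.8 for Saa4, 54.5 for Apcs, 24.7 for Saa1, 9.15 for Lcn2, 6.83 for Saa2, 6.58 for Orm2 and 6.32 for Saa3. Saa1 and Saa2 thus stood above Saa4 by their medians in Chow and below it in every TM5614 liver, where Saa1 reached 45.3 FPKM at most and Saa4 was never under 64.6. Lcn2, Saa2, Orm2 and Saa3 overlapped in TM5614. The 10 genes together took 0.672% to 1.19% of all counts in Chow and 0.646% to 0.832% in TM5614.

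The mice did not keep 1 rank across the members. Mouse 44 was the highest Chow liver in Saa1, Saa2, Orm2, Lcn2 and Hpx and the lowest in Saa4 and Apcs. Mouse 42 was the highest in Saa3, Orm1, Hp and Apcs and the lowest in none. Mouse 41 was the lowest Chow liver in 5 members and the highest in none. Among treated livers mouse 47, which carried the muscle transcripts, was the highest in 5 members and the lowest in none. Relative to the Chow median of each gene on the log2 scale, mouse 44 stood at 2.58 in Saa1 and 3.07 in Saa2 but at 0.02 in Hp and -0.15 in Apcs.

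**Figure D4:**
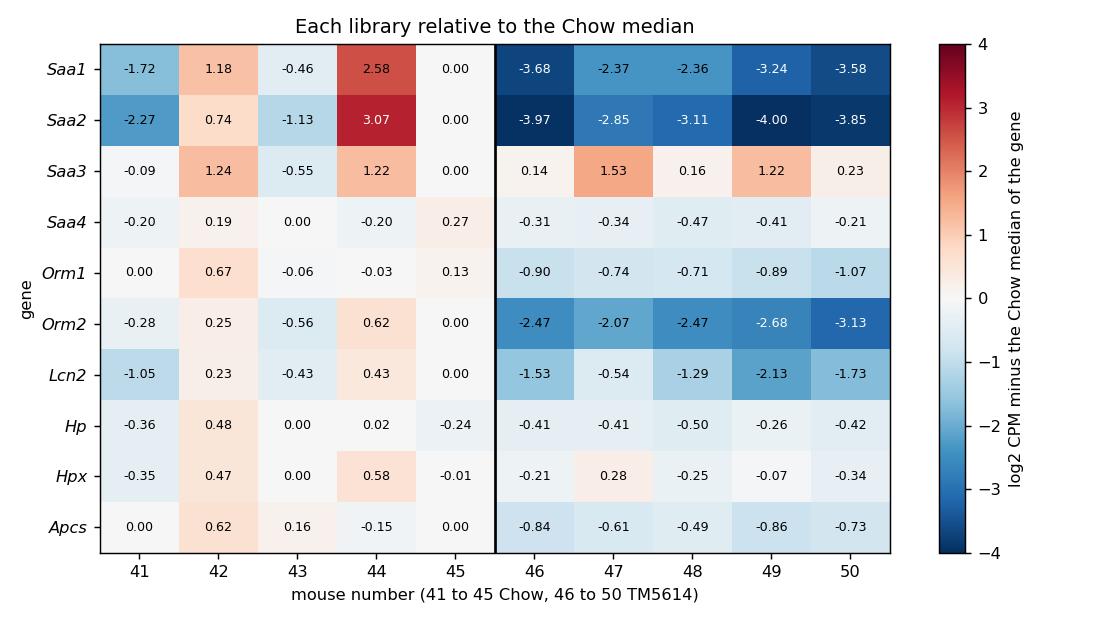
Each cell is the log2 CPM of a gene (rows) in a mouse (columns) minus the median of that gene over the 5 Chow mice. Blue is lower and red higher. Mouse 44 is at 2.58 and 3.07 in Saa1 and Saa2, and all 5 TM5614 mice are below the Chow median in every gene except Saa3 and, for mouse 47, Hpx.

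The genes whose pattern was most like that of Saa1 were sought over all genes tested, as the Pearson correlation of log2 CPM after the mean of each group was taken out, over the 10 libraries, which share their depth and composition between genes. The 8 highest outside the members were 2210408F21Rik (r = 0.96), Rhno1 (0.91), Blvra (0.91), Nmral1 (0.90), Sdhd (0.89), Ezh1 (0.88), Gimap6 (0.87) and Tsc22d4 (0.87). Without mouse 44 only 2 of the 8, Blvra and Gimap6, remained among the highest 8, and 21 genes were shared between the highest 100 of each ranking. The other 6 then ranked between 9 and 345. Of the members, Saa2 had r = 0.98 with Saa1 (0.96 without mouse 44), Hpx 0.87 (0.83), Lcn2 0.80 (0.81), Orm2 0.78 (0.65), Saa3 0.69 (0.59) and Hp 0.51 (0.67). Orm1, Apcs and Saa4 had 0.36, 0.18 and -0.09 with mouse 44 and 0.85, 0.82 and 0.46 without it. Among the Chow mice alone, over 5 points, Saa1 had r = 0.99 with Saa2, 0.97 with Hpx, 0.94 with Lcn2, 0.88 with Orm2 and 0.83 with Saa3. It had 0.60 with Hp, 0.26 with Orm1, 0.04 with Apcs and 0.01 with Saa4. Mouse 44 was the highest Chow point in Saa1, Hpx and Lcn2. Among the TM5614 mice alone, also over 5 points, Saa1 had r = 0.93 with Saa2, 0.89 with Orm1, 0.85 with Apcs and 0.70 with Lcn2. It had 0.67 with Orm2, 0.55 with Hpx, 0.41 with Saa3, -0.36 with Hp and -0.64 with Saa4. The order of the members thus differed between the groups.

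Other genes of the acute phase were examined next, in lists chosen with earlier results of these data known, so their p-values are descriptive. Of 23 further positive acute-phase genes 22 were tested, 3 fell (Itih4, C4b and Mt1), 1 rose (Hamp) and 18 did not pass the threshold. The median log2 fold change was -0.25, where it was 0.01 over all genes. Itih4, an inter-alpha-trypsin inhibitor heavy chain, measured 2065, 2412, 2396, 2595 and 2488 CPM in Chow and 1489, 1459, 1837, 1573 and 1222 CPM in TM5614 (log2 fold change -0.66, SE 0.12, edgeR adjusted p = 0.00858, and 0.0249 without mouse 44). C4b, a complement component, differed by -0.48 on the log2 scale (SE 0.12, edgeR adjusted p = 0.0387, and 0.0780 without mouse 44). Mt1, a metal-binding metallothionein, was highest in mouse 44 at 965 CPM and differed by -1.80 on the log2 scale (SE 0.45, edgeR adjusted p = 0.0430, and 0.0983 without mouse 44). C4b also lost its call without Chow mice 43 or 45 or any of the TM5614 mice, and Mt1 without Chow mouse 41 or TM5614 mice 46, 48, 49 or 50, while Itih4 kept its call with any single library left out.

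Hamp encodes hepcidin, the hormone that blocks iron release and is raised by interleukin-6. It measured 210, 426, 352, 421 and 146 CPM in Chow and 799, 1200, 682, 630 and 639 CPM in TM5614, so that its direction was opposite to that of Saa1. The groups did not overlap, and the difference on the log2 scale was 1.35 (SE 0.29, edgeR adjusted p = 0.0231, and 0.0315 without mouse 44). Hamp lost its call without Chow mice 41 or 43, or TM5614 mice 46, 47 or 48, each left out alone. The fibrinogen chains Fga, Fgb and Fgg had log2 fold changes of -0.06, -0.15 and -0.02 and did not pass (edgeR adjusted p from 0.452 to 0.932). Lbp and Crp, at 0.11 and 0.25, did not pass either (0.628 and 0.309). With DESeq2 and with limma-voom 9 genes of this list were called, and without Chow mouse 42 there were 8. These fits called 908, 1386 and 1031 of all genes, against 499 in the main fit.

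Of 14 negative acute-phase genes, all tested, 2 fell and 12 did not pass the threshold, where 2.77% of all genes tested were called lower. Serpina6, which encodes the plasma carrier of corticosteroids, measured 313, 436, 351, 414 and 396 CPM in Chow and 178, 194, 94.3, 138 and 136 CPM in TM5614 (log2 fold change -1.37, SE 0.18, edgeR adjusted p = 0.00153). Igfals, the acid-labile subunit of the insulin-like growth factor complex, had -0.83 (SE 0.19, edgeR adjusted p = 0.0301). Serpina6 kept its call with any single library left out. Igfals kept it without mouse 44 but lost it without Chow mice 43 or 45, or TM5614 mice 47, 48, 49 or 50. Ttr and Alb, the classical members, had -0.62 and -0.15 (edgeR adjusted p = 0.104 and 0.444). DESeq2 and limma-voom each called 3 genes of this list, as edgeR did without Chow mouse 42, with Ttr the third in every case. Estimates were lower for 12 of these 14 and for 16 of the 22 positive genes. Their median log2 fold changes were -0.29 and -0.25, where the median over all genes tested was 0.01.

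**Figure D5:**
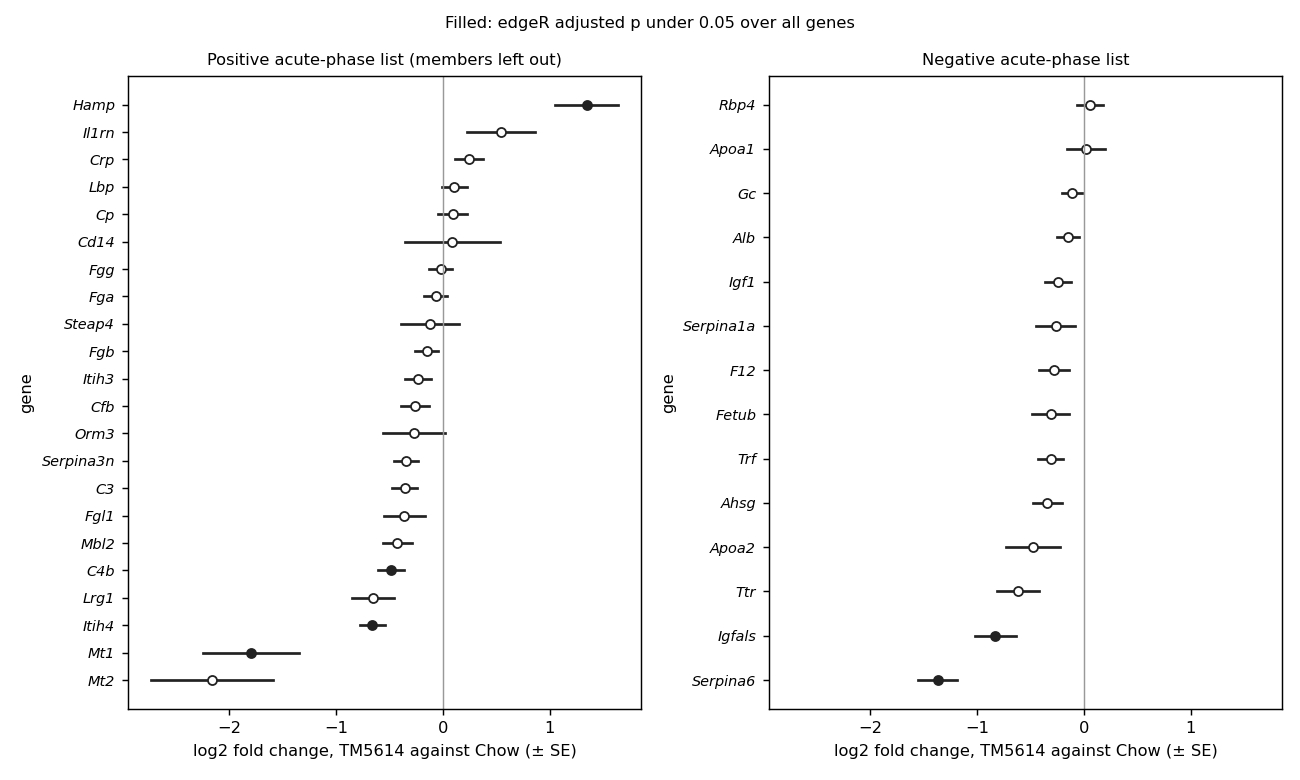
Points are edgeR log2 fold changes of TM5614 against Chow with their SE for the tested genes of the positive (left) and negative (right) acute-phase lists, sorted by value. Filled points passed an adjusted p of 0.05 over all genes. Hamp is the only filled point to the right of 0, at 1.35, and Serpina6 is the lowest of the negative list, at -1.37.

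The receptors and signalling genes through which cytokines reach these promoters did not pass the threshold. Of 28 such genes 26 were tested and edgeR called 0, where 4.50% of all genes tested were called. At that share a list this short can hold no call, so nothing is read from the 0. An unadjusted p under 0.05 was found for 4, and DESeq2 called 1 (Myd88). With limma-voom 4 were called, Il1r1 and Nfkbiz lower and Il22ra1 and Myd88 higher. Il1r1 had an edgeR log2 fold change of -0.69 (SE 0.29) and Myd88 of 0.38 (SE 0.11). Stat3 was at 119 ± 16.7 CPM in Chow and 105 ± 11.2 CPM in TM5614, Il6ra at 69.8 ± 23.4 and 46.6 ± 19.1, and Cebpb at 116 ± 31.9 and 103 ± 16.3 (SD, n = 5 each). Their log2 fold changes were -0.18 (SE 0.12), -0.58 (SE 0.28) and -0.16 (SE 0.18). Socs3, a feedback inhibitor that interleukin-6 signalling induces, had 6.44 ± 3.03 and 6.92 ± 3.75 CPM (SD, n = 5 each). The cytokines themselves were barely detected, with Il6 at no more than 1 count, Tnf at no more than 2 and Il1b at no more than 11 in any library, and Il22 at 0 in all. Of 11 cytokine genes Cxcl1 alone was tested (-0.54, SE 0.34, edgeR adjusted p = 0.392), and no call was made by edgeR, DESeq2 or limma-voom nor at an unadjusted p under 0.05. Such counts do not show that a cytokine was absent at this depth.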

How the data were processed

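Hepatic RNA of 5 Chow and 5 TM5614 mice was measured, 1 library per mouse, and the titles gave group and replicate number. The study's methods describe single-end sequencing of poly(A) libraries, alignment to mm10 with STAR and comparison with DESeq2 in Illumina's RNA Express application, and the submitters' processing notes also name HOMER. Tool versions, the annotation and the use of strand are not given in the sources used here. The authors deposited raw counts per gene symbol. The deposited FPKM values, scaled by length and library, were used only to set genes side by side. The deposited regularised log2 values served as an alternative. The authors' own comparison (fold changes and p-values per gene) was not used. No row of the count table lacked a gene name.

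Counts were filtered with filterByExpr, scaled with TMM and tested two-sided and without a block in edgeR 4.0.16 (glmQLFTest, adjusted p under 0.05, R 4.3.3). Standard errors came from the fold change and its F statistic. Log2 CPM had a prior count of 2. The lists were taken as written and every listed gene past the threshold was named. The members and lists were chosen with earlier results of these data known. The mice are separate animals, but cage and collection order are not in the labels, so no batch entered a fit. Libraries within a group were compared by chi-square, and the lowest value per degree of freedom was 8.00, so none was counted as a duplicate. Alternatives were DESeq2 1.42.0, limma-voom, other scalings and filters, a replicate block, robust dispersion, stricter thresholds, Saa1 and Saa2 summed, and each library left out. Leaving out Chow mice 42 and 44 together was an addition made with the data in view. The scripts were first tried on simulated counts. Coordinates and transcripts came from GENCODE M21 (GRCm38) and promoter windows from RefSeq (GRCm38.p6), aligned with Biopython 1.88. Low counts limit the precision of Saa3 and, in TM5614, of Saa2 and Orm2.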

Additional observations from a re-analysis of the deposited data

Results flagged for a closer look

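A library was picked out when its distance to its nearest neighbour was over 0.71 of the range of its group of 5. Over 14 measures in each group, 28 groups in all, 4 values were picked out, from Chow mice 42 and 44 and TM5614 mouse 47. For normally distributed values chance would give about 1.4. The rule was run on CPM and ratios without a log, which can be skewed, so that number is only a rough guide. Some measures share genes, so the picks are not independent and no excess is read from these numbers. Saa2 in Chow mouse 44 stood at 539 CPM, where the other Chow mice had 13.1 to 107 CPM. Orm2 as a percentage of Orm1 counts was 8.89% in the same mouse and 3.98% to 5.15% in the other Chow mice. Orm1 in Chow mouse 42 stood at 839 CPM, where the others had 507 to 576 CPM. The ratio of Hpx to Hp counts was 1.28 in TM5614 mouse 47, the liver with the muscle transcripts, and 0.849 to 0.943 in the other treated mice. Saa1 in mouse 44, at 866 CPM, was not picked out, as the other Chow values were themselves widely spread.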

How the results depend on the processing

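Stricter thresholds and robust dispersion leave log2 fold changes as they are. Under the other settings 9 members kept their sign, and Saa3, never called, turned to -0.02 without TM5614 mouse 47. Members called numbered 3 in the test against a fold change of 1.5 (Saa1, Saa2 and Orm2) and 4 at an adjusted p of 0.01. All genes called then numbered 78 and 184, against 499 in the main fit. With DESeq2 or limma-voom 7 members were called, where 908 and 1386 of all genes were. With a library left out 5 to 6 members were called, where 235 to 1031 of all genes were. With Chow mice 42 and 44 both left out, Saa1 was -2.40, Saa2 -2.70 and Saa3 1.02. In the deposited regularised log2 values, which are shrunk, the differences of Saa1, Saa2, Orm1, Orm2 and Apcs were -2.24, -2.31, -0.69, -1.47 and -0.56. With limma-voom Saa1 and Saa2 were -3.25 and -3.50.

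All genes called numbered 499, and 908 with DESeq2, 1386 with limma-voom, 184 at 0.01, 78 against a fold of 1.5, 791 without Chow mice 42 and 44, and 235 to 1031 with a library left out. The library that gave 1031 was Chow mouse 42. Calls in the positive list were 9 with DESeq2 or limma-voom, 2 with library totals alone, 1 at 0.01, 0 against a fold of 1.5, and 1 to 8 with a library left out, 8 without Chow mouse 42. Calls in the negative list were 1 at 0.01, 1 against a fold of 1.5, and 1 to 3 with a library left out. Calls among cytokine receptors and signalling genes were 1 with DESeq2, 4 with limma-voom, 1 with library totals alone, 1 without Chow mice 42 and 44, and 0 to 2 with a library left out. The cause was not tested, other than the stricter thresholds.

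Deviations of same-numbered mice correlated at 0.03, 0.32, 0.12, 0.03 and 0.25 over genes, and in 1 of 5 pairs a mouse was most like its own number, so the numbers were not taken to pair the mice. With the replicate block 555 genes, 6 members, 3 positive-list genes (Hamp, Itih4 and Mt2) and 2 negative-list genes were called, and Saa1 and Saa2 were -3.36 and -3.70. Depth limits Saa3, at 18 to 73 counts, and Saa2 in TM5614, at 27 to 67 counts.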

Other observations

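Receptors and carriers that take up the members' proteins or their cargo did not pass the threshold. Of 12 such genes 9 were tested and 0 were called by edgeR, DESeq2 or limma-voom, with 0 at an unadjusted p under 0.05. Over all genes tested edgeR called 4.50%, a share at which so short a list can hold no call. Scarb1, the receptor of high-density lipoprotein, had 231 ± 22.5 CPM in Chow and 241 ± 18.3 CPM in TM5614, and Lrp1, which takes up hemopexin with haem, had 728 ± 106 and 621 ± 116 CPM (SD, n = 5 each). Cd163, the haptoglobin-haemoglobin receptor of macrophages, had 7.57 ± 3.75 and 7.52 ± 3.60 CPM, and Hmox1, which breaks down haem, had 11.5 ± 3.37 and 9.42 ± 2.01 CPM (SD, n = 5 each). The lymphocyte markers, 7 of 8 in the table, were all below the filter, with a sum of 1.98 to 5.59 CPM in Chow and 1.85 to 6.08 CPM in TM5614.

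Mt2, the neighbour of Mt1, measured 199, 333, 84.5, 501 and 120 CPM in Chow and 40.1, 137, 45.6, 19.4 and 34.5 CPM in TM5614. Its log2 fold change of -2.16 (SE 0.57) missed the threshold (edgeR adjusted p = 0.0536, and 0.122 without mouse 44). It was called lower by DESeq2, by limma-voom, and by edgeR without Chow mice 42 or 43 or TM5614 mouse 47, each left out alone. As in Saa1, Saa2, Orm2, Lcn2 and Hpx, mouse 44 was the highest Chow liver and mouse 42 the next. Lrg1, a leucine-rich glycoprotein of the acute phase, had instead its highest value in mouse 42, at 749 CPM, as Orm1, Hp and Apcs did, and its difference of -0.65 on the log2 scale (SE 0.20, edgeR adjusted p = 0.0912) did not pass, though DESeq2, limma-voom and edgeR without mouse 42 called it lower.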
